A study of Mus musculus with 24 samples.

Results

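The mRNA levels of 8 genes of the folate cycle and of folate uptake were compared between the liver and the colon of the same mice, and between 2 post-weaning diets within each tissue. The genes were listed by name: Slc19a1 and Fpgs for the uptake and retention of folate, Tyms, Shmt1, Shmt2, Mthfd1 and Mthfd2 for the use and interconversion of folate-bound carbon units, and Ftcd for the folate-dependent end of histidine breakdown. They were 8 of 27962 gene names on the array, and 13 of its 41174 probes measured them. Where a gene had more than 1 probe, the one with the highest mean intensity is called the main probe, and values are those of the main probe unless another is named.

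The study asked how selenium and folate supplied after weaning affect mice on a high-fat diet. All 12 mice were C57BL/6 females, 12 weeks old at sampling, born to dams kept on HF-low, a high-fat diet with folate at 0.4 mg/kg and selenium at 0.1 mg/kg, from before mating until weaning. After weaning 6 offspring stayed on HF-low (HF-low-low) and 6 received HF-suf, the high-fat diet with folate at 1.8 mg/kg and selenium at 0.6 mg/kg (HF-low-suf), so that folate and selenium were changed together and their effects cannot be told apart. Whole colon and whole liver were taken from each mouse after a fast and re-feeding. This gave 24 arrays in 4 groups of 6, colon HF-low-low, colon HF-low-suf, liver HF-low-low and liver HF-low-suf. The arrays of a group came from separate animals, and the litters they came from are not given in the sources used here.

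Folate carries single carbon groups between metabolites, and its forms differ in the oxidation state of the carbon they hold. Serine hydroxymethyltransferases load the carbon of serine onto tetrahydrofolate, dehydrogenases and cyclohydrolases interconvert the loaded forms, and thymidylate synthase and the enzymes of purine and methionine synthesis spend them. The cytosol and the mitochondrion each hold a set of these enzymes, and the liver is the main organ of folate storage, of the breakdown of histidine and of the oxidation of methyl groups.

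Each array compared the RNA of 1 tissue of 1 mouse, labelled with Cy3, with a reference pool labelled with Cy5, which the labels describe as equal amounts of colon and liver RNA of all mice and the study's methods as intestinal and liver RNA. Every level below is the log2 ratio of Cy3 to Cy5, after background correction and loess normalization within the array, and every difference is a difference of such log2 ratios. Over the 24 arrays the median Cy3 signal was 3.78 to 7.20 times background. A probe is called well above background on an array where the scanning software marked its Cy3 signal so, and 26.1% to 71.9% of the spots of an array were. With a pool of only these tissues in equal parts, the mean of a probe's linear ratios in the 2 tissues would lie near 1. It was 1.04 at the median of 9113 bright probes, but 0.502 for Slc19a1, 0.548 for Mthfd2, 1.89 for Shmt1, 1.92 for Ftcd and 2.10 for Fpgs. The skeletal muscle markers lay far below the pool in both tissues, with list means of -5.40 to -2.89 over the 24 arrays, as did the pancreas acinar markers, with -3.38 to -1.08, so what the pool held is uncertain. The dyes were not swapped either, so a level is read here only against the same probe on other arrays. The reference channel of 2 arrays stood apart, with a median Cy5 signal 18.1 (colon HF-low-suf replicate 5) and 12.8 (liver HF-low-suf replicate 4) times background against a median of 6.71 over the arrays, and without both arrays no gene of the 8 lost its call and Mthfd2 gained one. Precision is limited by how many arrays there were.

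Tissue set the level of most of these genes. Ftcd, Fpgs, Shmt2, Shmt1 and Mthfd1 were higher in liver than in colon and Tyms was lower, each with an adjusted P below 0.05 and a fold change above 1.5, the threshold used between tissues. These 6 calls compare with 23.6% of all probes called in this comparison, 11.4% higher and 12.2% lower in liver. The adjusted P of all 8 genes was below 0.05, as it was for 38.3% of all probes. The median difference of the 8 genes was 1.90, against 0.02 over all probes. Of the calls over all probes 48.3% were higher in liver, and 29.4% were where the arrays were centred on their median in place of loess. The test was limma over 24 arrays, in which the mouse was a random block, with Benjamini-Hochberg adjustment over all probes. In these whole tissues, fewer cells of a type and less RNA per cell cannot be told apart.

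**Figure D1:**
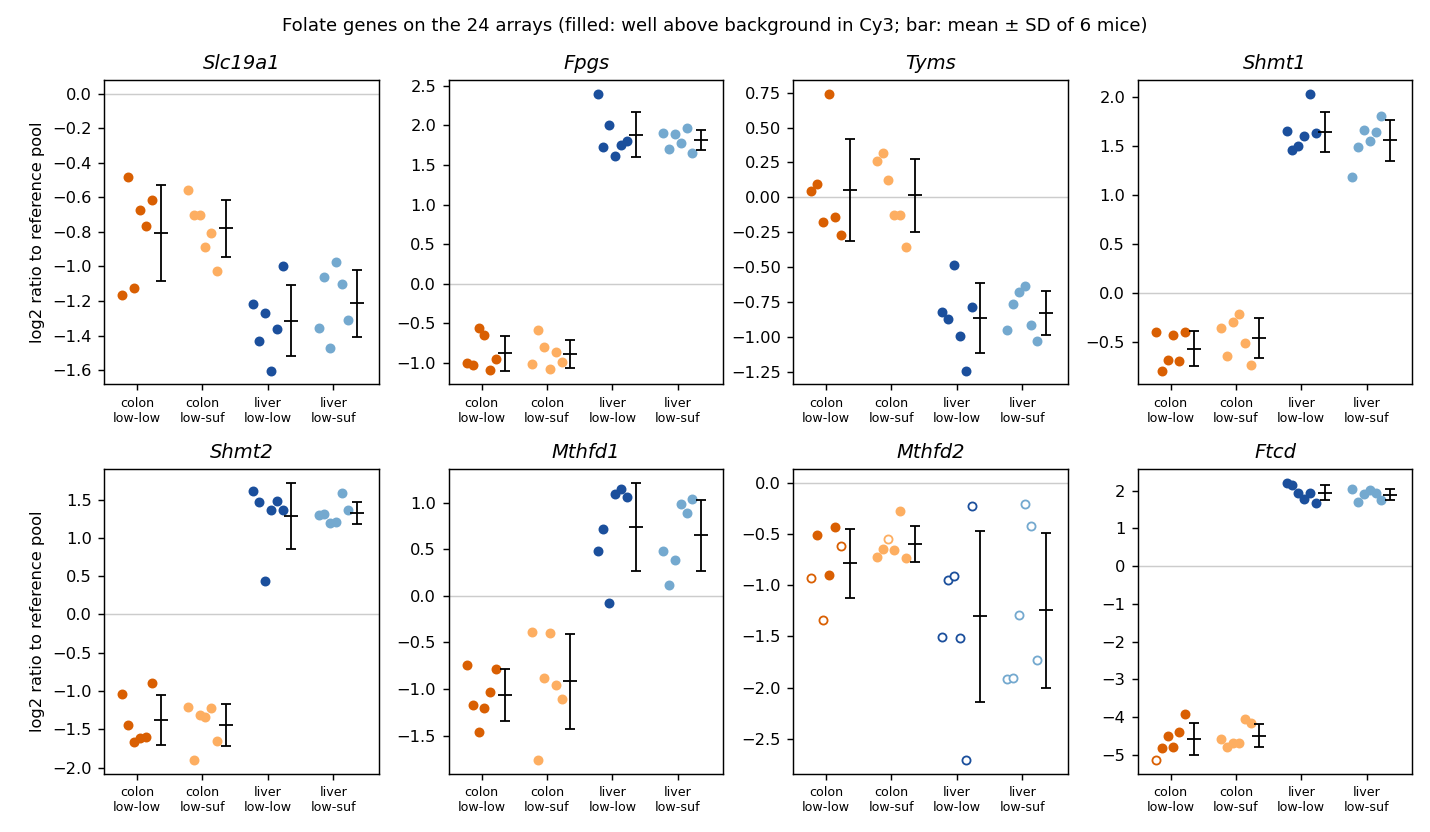
The log2 ratio to the reference pool (y axis) of the main probe of each of the 8 genes on every array, in 4 groups of 6 mice (x axis). Filled points are arrays where the probe was well above background in Cy3 and open points are arrays where it was not, and bars are the mean ± SD. Liver and colon points do not overlap for Fpgs, Tyms, Shmt1, Shmt2, Mthfd1 and Ftcd, while the 2 diets overlap in every panel, and all 12 liver points of Mthfd2 are open.

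The hepatocyte and colon epithelium markers followed the labels. All 7 hepatocyte markers measured (of 8 listed) were higher in liver, with a mean log2 ratio over the list of -3.98 to -3.49 on the colon arrays and 1.24 to 1.995 on the liver arrays. Of the colon epithelium list, 8 of 8 were lower in liver, with list means of 0.46 to 1.14 in colon and -4.76 to -3.53 in liver. Smooth muscle markers (6 of 6 lower in liver) and adipose markers (5 of 5 lower in liver) also followed the tissue, except that 1 liver, that of HF-low-suf replicate 1, had an adipose list mean of 2.63, within the colon range of 1.02 to 3.30. Of the pancreas acinar markers 4 of 6 were called higher in liver, with list means of -3.38 to -2.36 in colon and -2.54 to -1.08 in liver, but 3 of the 4, Pnlip, Ela2a and Prss2, were well above background on 5 or fewer of 12 arrays in each tissue. Of the skeletal muscle markers 3 of 6 were called higher, with list means of -5.40 to -4.42 in colon and -4.99 to -2.89 in liver. Of 5 markers of B and plasma cells, 2 were called higher and 1 lower. The part of the tissues' cell makeup in the differences given here was not tested.

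Slc19a1 encodes the reduced folate carrier, a membrane transporter that brings folate into cells. Its log2 ratio was -1.16 to -0.48 (median -0.72) on the 6 colon HF-low-low arrays and -1.02 to -0.56 (median -0.75) on the 6 colon HF-low-suf arrays. In liver it was -1.60 to -0.996 (median -1.32) with HF-low-low and -1.47 to -0.98 (median -1.21) with HF-low-suf. The liver was lower in 12 of 12 mice, yet the ranges of the tissues overlapped. The difference was -0.47 (standard error 0.09, 95% confidence interval -0.66 to -0.28, adjusted P of 0.0001102 in limma), or 1.39-fold lower in liver, which is below the fold threshold, so Slc19a1 was not called. With median centring in place of loess the difference was -0.89, and with the signals processed by Feature Extraction -0.63, and both were called. Its other probe pointed the other way, with a difference of 0.36 (standard error 0.13, adjusted P of 0.03462), and was well above background on 7 of 24 arrays, against 24 of 24 for the main probe. The 2 probes lie 11555 bases apart on chromosome 10 (build mm7 of the mouse genome), from 76693102 to 76693161 for the dim probe and from 76704717 to 76704776 for the main probe, and which of them follows the transcript better was not tested.

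Fpgs encodes folylpolyglutamate synthase, which adds glutamates to folate and so keeps it inside the cell. Its log2 ratio was -1.09 to -0.56 (median -0.97) in colon HF-low-low and -1.08 to -0.58 (median -0.93) in colon HF-low-suf mice. In liver the values were 1.62 to 2.40 (median 1.78) with HF-low-low and 1.66 to 1.97 (median 1.84) with HF-low-suf. The lowest liver was far above the highest colon. Fpgs was 6.66-fold higher in liver, a difference of 2.73 (standard error 0.09, adjusted P of 1.623e-19), and within a mouse the difference was 2.26 to 3.40.

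Tyms encodes thymidylate synthase, which makes the thymidine nucleotide for DNA from folate-bound carbon. Its main probe read -0.27 to 0.74 (median -0.05) in colon HF-low-low and -0.35 to 0.31 (median 0.00) in colon HF-low-suf mice. In liver it read -1.24 to -0.48 (median -0.84) and -1.03 to -0.64 (median -0.84), in the same order of diets. Every liver value lay below every colon value. The gene was 1.84-fold lower in liver, a difference of -0.88 (standard error 0.11, adjusted P of 8.935e-08), in 12 of 12 mice. Of 11 markers of proliferating cells, which need thymidine nucleotides, 8 were called lower in liver, and the list's mean log2 ratio was -1.21 to -0.33 on colon arrays and -2.69 to -1.11 on liver arrays. Among the 8, Top2a was well above background on 0, Cdc2a on 2 and Ccna2 on 4 of 12 liver arrays. Ccnb1 and Bub1 were not called, with measured differences of -0.48 (standard error 0.22) and -0.41 (standard error 0.23). Like Top2a, they were well above background on 0 of 12 liver arrays. The size of the difference is thus uncertain for Top2a, Ccnb1 and Bub1 alike, called or not. Rrm2, a subunit of the enzyme that makes deoxynucleotides, was not called either, with 0.38 (standard error 0.17) and the higher value in liver in 9 of 12 mice, and lay far below the pool in both tissues, at -4.18 in colon and -3.80 in liver. The part of cell proliferation in the difference of Tyms was not tested.

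What the Tyms probes read is less certain than their signal is strong, because the mouse genome holds Tyms-ps, a transcribed pseudogene of Tyms by its RefSeq entry, and the array has a probe for it. The sequences are shown because their overlap bears on which transcripts each probe can see. They are given 5′ to 3′ as in the array files, with in capitals the longest run of bases that a Tyms probe shares with the Tyms-ps probe, and in the Tyms-ps probe the run it shares with the main Tyms probe.
Tyms, main probe: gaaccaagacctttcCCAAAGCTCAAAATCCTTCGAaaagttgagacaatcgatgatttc
Tyms, other bright probe: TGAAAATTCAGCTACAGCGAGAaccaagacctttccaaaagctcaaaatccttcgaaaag
Tyms-ps probe: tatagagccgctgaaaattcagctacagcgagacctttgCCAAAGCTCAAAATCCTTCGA
Tyms, dim probe: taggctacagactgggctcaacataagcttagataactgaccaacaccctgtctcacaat

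The longest shared run was 21 bases for the main probe and 22 for the other bright probe. Counting all shared runs of at least 12 bases, 21 of the 60 bases of the main probe and 41 of the 60 of the other lay in sequence that the Tyms-ps probe also has. Only the probes were compared, not the whole Tyms-ps transcript. The run of the main probe ended at the last base of the Tyms-ps probe, so the bases after it had no counterpart. These counts are thus a minimum for the overlap with the Tyms-ps transcript. In build mm7 the main Tyms probe lies on the minus strand of chromosome 5 from 29093977 to 29094036, and the Tyms-ps probe on chromosome 10 from 87525823 to 87525882. The other bright probe covers a span of 894 bases on chromosome 5, from 29093997 to 29094890, with only 60 bases of its own, so it crosses an intron. The dim probe, from 29094245 to 29094304, lies between the ends of that span and outside both flanks, thus within the intron.

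The other bright probe gave a difference of -0.77 (standard error 0.11, adjusted P of 9.383e-07), close to that of the main probe. The Tyms-ps probe was well above background on all 24 arrays, with 0.10 ± 0.31 (SD, n = 12 mice) in colon and -0.44 ± 0.27 (SD, n = 12) in liver. Its difference was -0.54 (standard error 0.12, adjusted P of 0.000396), lower in liver in 10 of 12 mice. After removal of the group means, Tyms-ps was also the gene most like Tyms of 8803 compared, with a Pearson r of 0.959 over 24 arrays, followed by Nup85 (0.898) and Rfc4 (0.844). The value of Tyms is thus uncertain between the gene and its copy, and how much each transcript gave to each probe was not tested. The intronic probe was well above background on 2 of 24 arrays and differed by 0.18 (standard error 0.19, adjusted P of 0.5359).

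**Figure D2:**
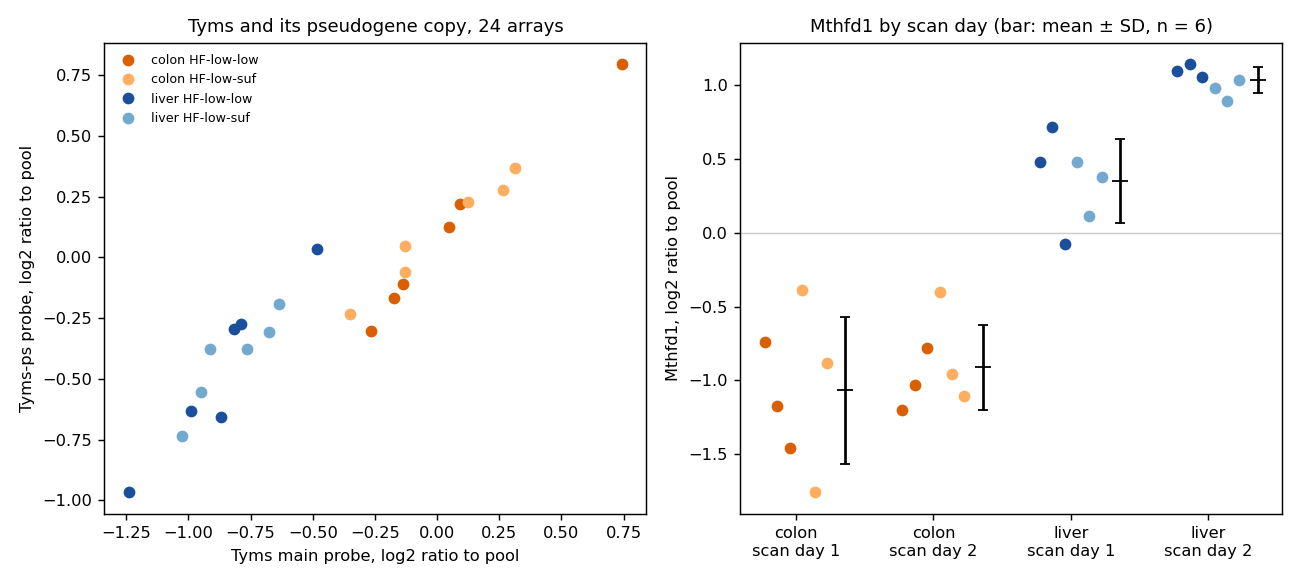
Left, the log2 ratio of the Tyms main probe (x axis) and of the Tyms-ps probe (y axis) on each of the 24 arrays, coloured by group. Both rise together within each tissue, and the array at the upper right is colon HF-low-low replicate 4, with 0.74 for Tyms. Right, the log2 ratio of Mthfd1 (y axis) by tissue and scan day (x axis), with the mean ± SD of 6 arrays. In liver all 6 arrays of day 2, from 0.89 to 1.14, lie above all 6 of day 1, from -0.07 to 0.72.

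Shmt1 and Shmt2 encode the cytosolic and the mitochondrial serine hydroxymethyltransferase, which move the carbon of serine to tetrahydrofolate and release glycine. Shmt1 read -0.79 to -0.40 (median -0.55) in colon HF-low-low and -0.73 to -0.22 (median -0.43) in colon HF-low-suf mice. In liver it read 1.46 to 2.04 (median 1.62) and 1.19 to 1.81 (median 1.61), in the same order. The tissues did not overlap. Shmt1 was 4.34-fold higher in liver, a difference of 2.12 (standard error 0.09, adjusted P of 2.651e-17). A second probe of Shmt1, 8937 bases away on the minus strand of chromosome 11 of build mm7, gave a smaller difference of 1.56 (standard error 0.12, adjusted P of 1.306e-11). Both were well above background on 24 of 24 arrays, and both are shown since 2 separate stretches of the transcript gave the same direction. The main probe lies from 60871155 to 60871214 and the other from 60880152 to 60880211.
Shmt1, main probe: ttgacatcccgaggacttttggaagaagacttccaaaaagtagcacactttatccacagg
Shmt1, other probe: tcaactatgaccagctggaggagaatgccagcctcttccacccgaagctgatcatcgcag

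Shmt2 read -1.66 to -0.90 (median -1.52) in colon HF-low-low and -1.90 to -1.21 (median -1.33) in colon HF-low-suf mice. In liver it read 0.43 to 1.61 (median 1.42) with HF-low-low and 1.20 to 1.59 (median 1.31) with HF-low-suf. The value of 0.43 is that of HF-low-low replicate 3, and the other 11 livers lay at 1.20 or above. Shmt2 was 6.57-fold higher in liver, with a difference of 2.72 (standard error 0.12, adjusted P of 5.656e-17) and a range within mice of 2.10 to 3.21. So both the cytosolic and the mitochondrial gene were higher in liver. The single probe of Shmt2 lies on the minus strand of chromosome 10, from 127019144 to 127019203 in build mm7.

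Mthfd1 encodes the cytosolic enzyme that interconverts the methylene, methenyl and formyl forms of tetrahydrofolate. It read -1.46 to -0.74 (median -1.10) in colon HF-low-low and -1.76 to -0.39 (median -0.92) in colon HF-low-suf mice. In liver it read -0.07 to 1.14 (median 0.89) and 0.11 to 1.04 (median 0.69), in the same order. The tissues did not overlap, although the spread over mice was wide. Mthfd1 was 3.21-fold higher in liver, a difference of 1.68 (standard error 0.15, adjusted P of 2.218e-10). Its other probe, 13728 bases away on chromosome 12, gave 1.64 (standard error 0.21, adjusted P of 2.55e-07), and both were bright on all arrays. In build mm7 the main probe lies from 74275821 to 74275880 and the other from 74262033 to 74262092, and both are shown since they gave nearly the same difference.
Mthfd1, main probe: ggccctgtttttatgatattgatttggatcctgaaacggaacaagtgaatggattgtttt
Mthfd1, other probe: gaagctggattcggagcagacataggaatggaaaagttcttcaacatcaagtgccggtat

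The slides were scanned on 2 days, replicates 1 to 3 on one and 4 to 6 on the other. The liver level of Mthfd1 was 0.35 ± 0.29 (SD, n = 6) on the first day and 1.04 ± 0.09 (SD, n = 6) on the second, with no overlap, in both diets. The difference between days was 0.69 (adjusted P of 0.09474 in limma with diet in the fit), the smallest adjusted P of the 16 comparisons of a gene in a tissue, and did not pass 0.05, where 0.0364% of all probes passed an adjusted P of 0.05 in liver. Scan day and other properties of these mice and slides cannot be told apart. In colon the days differed by 0.16 (adjusted P of 0.8816). Within the first day Mthfd1 was 1.42 higher in liver than in colon (standard error 0.21) and within the second day 1.95 (standard error 0.13), so the tissue difference was present in each.

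Mthfd2 encodes the mitochondrial methylenetetrahydrofolate dehydrogenase, known for being low in most adult tissues and high in dividing cells. In colon it read -1.34 to -0.43 (median -0.76) with HF-low-low and -0.74 to -0.28 (median -0.65) with HF-low-suf. In liver it read -2.71 to -0.23 (median -1.22) and -1.92 to -0.21 (median -1.51), in the same order. The tissues overlapped, and the spread within a diet was 0.80 in liver against 0.27 in colon. The probe was well above background on 8 of 12 colon arrays and on 0 of 12 liver arrays, so the liver level is only a bound. In the Cy3 signal alone, liver values were raised to the dimmest signal called well above background on their array where they lay below it. The colon mean of Mthfd2 was then 1.18-fold higher. That mean includes the colon arrays on which the probe was dim, so the value is not a strict lower bound. The measured difference of the log2 ratios was -0.58, with an adjusted P of 0.02723 in limma. The liver value was the lower one in 9 of 12 mice. Mthfd2 was not called, and 11 of 27 alternative settings called its measured difference, which was -1.94 with the signals processed by Feature Extraction. Without HF-low-suf mice 1 and 2, the pair whose livers had the highest adipose marker levels, the difference was -0.44 with an adjusted P of 0.1629.

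Ftcd encodes formiminotransferase cyclodeaminase, which passes the formimino group of histidine breakdown to tetrahydrofolate and is known as a liver enzyme. Its log2 ratio was -5.13 to -3.91 (median -4.64) in colon HF-low-low and -4.78 to -4.05 (median -4.63) in colon HF-low-suf mice. In liver it was 1.67 to 2.20 (median 1.93) and 1.69 to 2.04 (median 1.92), in the same order. The lowest liver stood above the highest colon by more than the whole range of either tissue. Ftcd was 87.6-fold higher in liver, a difference of 6.45 (standard error 0.11, 95% confidence interval 6.22 to 6.69, adjusted P of 1.873e-25), the widest of the 8 genes. Even so, the probe was well above background on 11 of 12 colon arrays. It lies on chromosome 10 from 76245143 to 76245202 in build mm7.

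In the exact sign-flip permutation test of the 12 within-mouse differences, two-sided over 4096 sign patterns, the P was 0.0004883, the smallest this test can give, for the main probes of 7 genes, and 0.02686 for Mthfd2. The P of Mthfd2 rests on liver values of a probe well above background on 0 of 12 liver arrays. The direction was that of the fit, with liver higher in 12 of 12 mice for Ftcd, Fpgs, Shmt2, Shmt1 and Mthfd1 and lower in 12 of 12 for Tyms and Slc19a1.

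**Figure D3:**
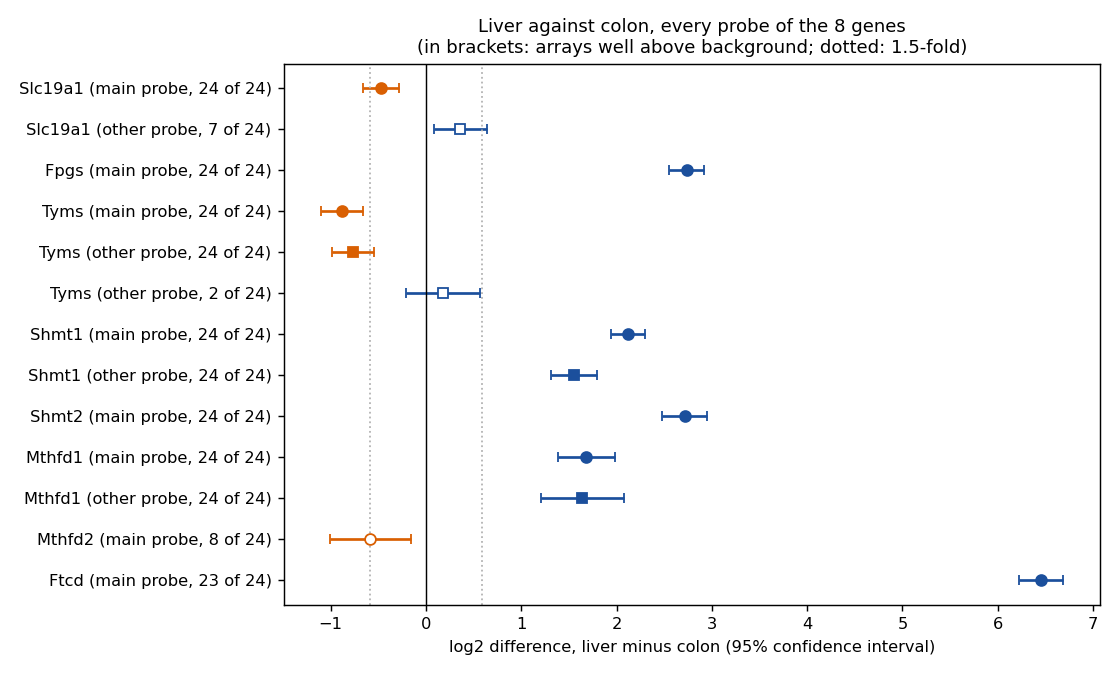
The difference between liver and colon on the log2 scale (x axis) with its 95% confidence interval from limma for all 13 probes of the 8 genes (y axis), circles for main probes and squares for others. Filled symbols are probes that were well above background on 12 or more arrays. The 2 Slc19a1 probes lie on opposite sides of 0, at -0.47 and 0.36, and the dim Tyms probe at 0.18 stands apart from the 2 bright ones.

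The other genes of folate metabolism were described from a list of 31, of which 29 were on the array, Slc46a1 under the older name D11Ertd18e. Of these, 14 were higher in liver, 1 was lower and 14 were not called, with a median difference of 0.55. Over all probes 11.4% were called higher and 12.2% lower in liver, with a median difference of 0.02. The widest measured differences were those of Bhmt, betaine-homocysteine methyltransferase (7.03, standard error 0.13), Dmgdh, dimethylglycine dehydrogenase (6.72, standard error 0.12), Amdhd1 of histidine breakdown (5.95, standard error 0.15) and Gnmt, glycine N-methyltransferase (5.81, standard error 0.23). All of them were well above background on 12 of 12 liver arrays, but in colon only Bhmt and Gnmt were on all 12, Dmgdh on 5 and Amdhd1 on 1, so most colon values of Dmgdh and Amdhd1 are dim. Members of the histidine pathway, which feeds Ftcd, were all called: Hal, Uroc1 and Amdhd1 were higher in liver by a measured 5.72, 5.39 and 5.95, and were well above background on 11, 4 and 1 of 12 colon arrays. The single gene called lower was Mthfd1l, the mitochondrial formyltetrahydrofolate synthetase, at -1.75 (standard error 0.21, adjusted P of 6.363e-08), lower in liver in 12 of 12 mice and well above background on 12 colon and 3 liver arrays.

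Gart and Atic of purine synthesis (0.36 and -0.21) and Mtr and Mtrr of methionine synthesis (-0.10 and 0.33) were not called, while Mtr was well above background on 3 colon arrays and 1 liver array and Mtrr on 0 of 24. Among 8 genes of uptake and storage, Slc46a1, the proton-coupled folate transporter, was higher in liver by 2.13 and Folr2, a folate receptor, by 1.40. Folr1, the other receptor, differed by -0.01. Ggh, gamma-glutamyl hydrolase, which undoes the work of Fpgs, was lower in liver by a measured -0.47 (adjusted P of 0.0002951) and stayed under the fold threshold, like Slc19a1.

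**Figure D4:**
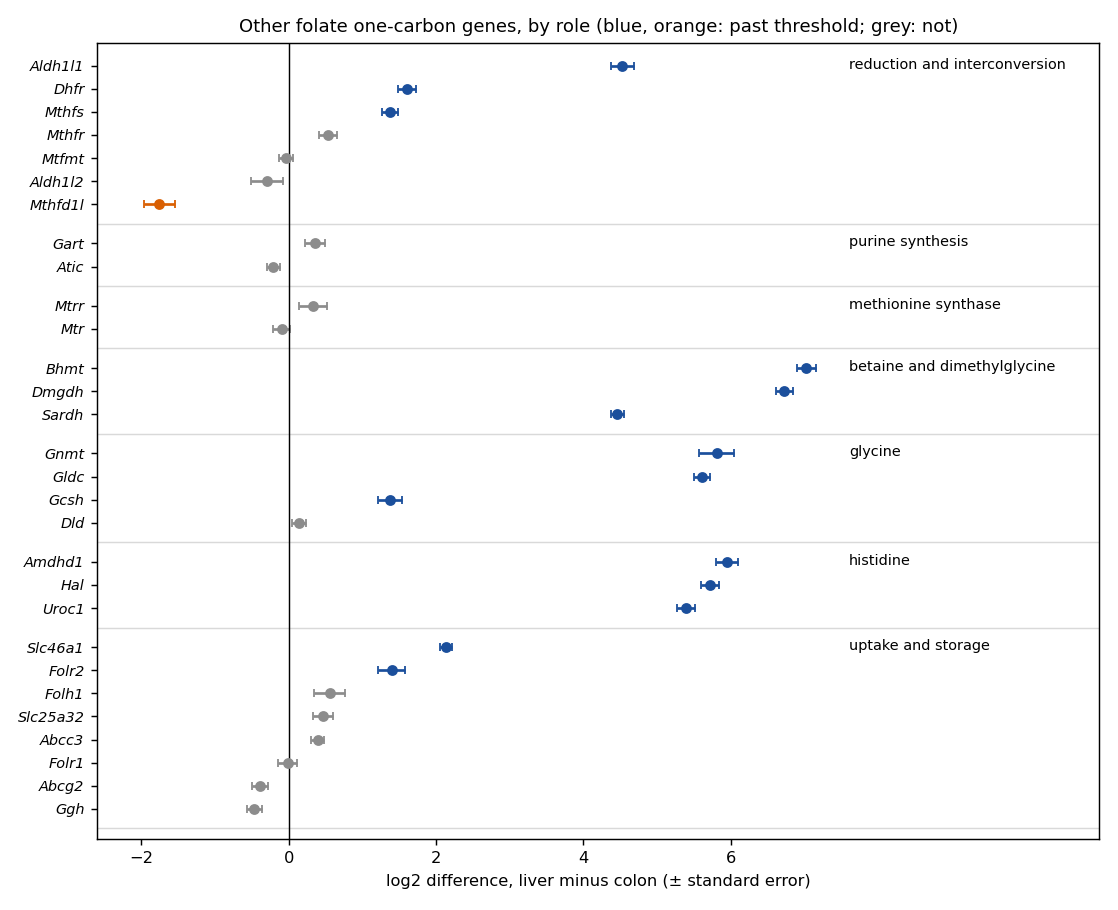
The difference between liver and colon on the log2 scale (x axis, with its standard error) for 29 other genes of folate metabolism (y axis), grouped by role. Blue and orange points passed the threshold as higher or lower in liver, and grey points did not. The genes of histidine breakdown and of betaine and dimethylglycine use lie between 4.46 and 7.03, and Mthfd1l is the single orange point, at -1.75.

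The diet comparison asked whether mice that received more folate and selenium after weaning had other levels of these genes. By the dye labels, a positive difference means a higher level in HF-low-suf mice. The study's tables define the sign in the same way, but carry the opposite sign for Nov in colon and Slc2a4 in liver. With the dyes as labelled, the difference was 0.82 (standard error 0.25) for Nov and 1.26 (standard error 0.46) for Slc2a4. The cause of the opposite signs was not tested, so the direction of every diet difference below rests on the dye and diet labels. At the study's threshold in limma, a fold change above 1.5 with P below 0.01 before adjustment, 0 of the 8 genes were called in liver and 0 in colon, where 0.114% and 0.168% of all probes were called. An unadjusted P below 0.05 was reached by 0 of the 8 genes in either tissue, and by 2.14% of all probes in liver and 2.99% in colon. After adjustment 0 probes of the whole array passed 0.05 in either tissue. The median size of the diet difference over the 8 genes was 0.06 in liver and 0.08 in colon, against 0.11 over all probes in each.

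In liver the diet difference was largest for Slc19a1, at 0.10 (95% confidence interval -0.19 to 0.39). For Mthfd1 it was -0.09 (-0.58 to 0.40), for Shmt1 -0.09 (-0.39 to 0.21) and for Fpgs -0.07 (-0.37 to 0.24), all with the interval in brackets. Ftcd differed by -0.05 (-0.32 to 0.22), Shmt2 by 0.04 (-0.35 to 0.43) and Tyms by 0.04 (-0.26 to 0.33). The other probes of Mthfd1 and Shmt1, also bright on all arrays, had intervals of -0.95 to 0.49 and -0.60 to 0.30. The interval of Mthfd2 reached from -0.80 to 0.91 around 0.06, and its probe was dim on all 12 liver arrays, so no diet difference of this gene could be measured in liver.

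In colon the largest value was that of Mthfd2, at 0.19 (-0.16 to 0.53), followed by Mthfd1 at 0.15 (-0.31 to 0.60). Shmt1 differed by 0.11 (-0.18 to 0.40), Ftcd by 0.10 (-0.33 to 0.52) and Slc19a1 by 0.03 (-0.29 to 0.34). Shmt2 at -0.07 (-0.43 to 0.30), Tyms at -0.04 (-0.42 to 0.35) and Fpgs at -0.01 (-0.31 to 0.29) had negative values. The other probe of Mthfd1 had an interval of -0.31 to 0.86, and the probe of Mthfd2 was dim on 4 of 12 colon arrays. With median centring in place of loess the standard errors of the 8 genes were wider, at 0.22 to 0.43 in liver and 0.20 to 0.26 in colon. The two-sided exact permutation test over the 924 assignments of mice gave P values of 0.3939 to 0.9416 in liver and 0.2641 to 0.9221 in colon.

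**Figure D5:**
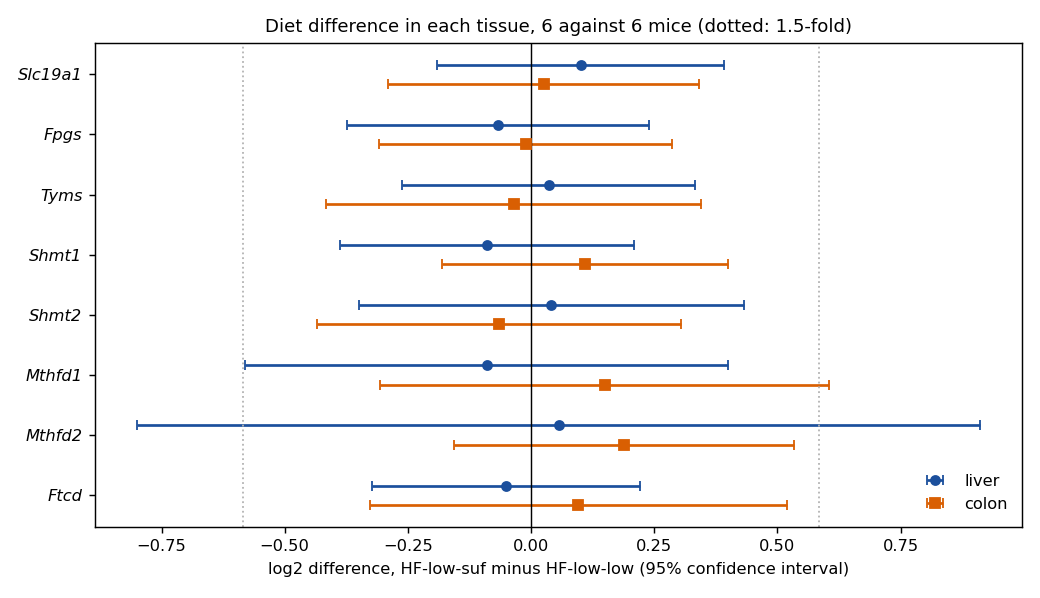
The diet difference on the log2 scale, HF-low-suf minus HF-low-low (x axis), with its 95% confidence interval from limma, for each of the 8 genes (y axis) in liver (circles) and colon (squares), 6 mice a diet. All 16 intervals cover 0, and that of Mthfd2 in liver, from -0.80 to 0.91, is the widest.

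The difference of the 2 diet effects, liver minus colon, was tested over all 24 arrays. It was called for 0 of 8 genes at an adjusted P of 0.05 in limma, and 0 reached an unadjusted P of 0.05, against 6.42% of all probes. The values ran from -0.24 (standard error 0.29) for Mthfd1 to 0.11 (standard error 0.23) for Shmt2. Of the 29 other folate genes, 0 were called for diet in liver or in colon and 0 reached an unadjusted P of 0.05. Over all probes 0.114% were called for diet in liver and 0.168% in colon, and 2.14% and 2.99% reached that P in limma. The adipose list mean of the other 11 livers was -2.09 to -0.44, and without replicates 1 and 2 of that group again 0 of the 8 genes were called.

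The genes whose levels moved most closely with a member from mouse to mouse were sought after removal of the 4 group means, among 8803 genes well above background in both tissues. For Mthfd1 they were Copa (r = 0.946), Fn1 (0.926) and Trap1 (0.924), and for Shmt2 Ap2a2 (0.915), Got2 (0.91) and Zfp289 (0.906). For Ftcd they were Rgs3 (0.873), Proc (0.865) and Padi1 (0.853), and for Fpgs Tmem110 (0.836), Alkbh5 (0.832) and Ipo8 (0.831). Shmt1 was followed by Cops5 (0.814), Psma1 (0.783) and Mkln1 (0.758), and Slc19a1 by Ly6c (0.764), 2610528J11Rik (0.739) and Ms4a8a (0.737). These are descriptions over 24 arrays that share slides, scan days and the reference pool. Without the 2 arrays of bright reference channel each of these r values was at least 0.721. Mthfd2 was too dim to be compared in this way.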

How the data were processed

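RNA of the colon and liver of 12 mice was measured on 24 two-colour Agilent 4x44k arrays, 6 slides of 4 arrays, each slide with 1 array of every group. Groups and mouse numbers are those of the labels. The authors deposited 1 file per array with the intensity of 45018 spots in both dyes (mean signal and median local background), as quantified by Feature Extraction 9.5 and before loess. Probe names, gene names, sequences and mm7 positions are those of the array files, and the RefSeq table (GRCm38.p6) gave names and gene types only.

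The mean signals were corrected with normexp (offset 50), 1639 control spots and outlier-marked spots were left out, loess was run within each array (limma 3.58.1, R 4.3.3), and spots of a probe were averaged. The study's methods name loess, limma and the diet threshold. Liver and colon of a mouse were paired by the labels, and the mouse was a random block (duplicateCorrelation, statmod 1.5.0, correlation 0.158); deviations of paired arrays from their group means correlated by -0.116 to 0.371. Diet was tested in each tissue on its 12 arrays. The fits were tested on simulated data with known changes.

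The rule was to name the 8 genes, up to 4 of the largest calls in each direction of the folate list, and the 3 genes most like each member that could be compared. Outside this rule the text also names Hal, Uroc1, Gart, Atic, Mtr, Mtrr, Slc46a1, Folr1, Folr2 and Ggh of the folate list. Single marker genes, Tyms-ps, Nov and Slc2a4 are named besides. The members and lists were chosen with earlier results of these data known. Alternatives were no or plain background correction, signals processed by Feature Extraction, median centring, Cy3 alone, outlier spots kept, a filter on dim probes, other probes, other blocks, scan days and leaving out arrays. One more, without HF-low-suf mice 1 and 2 between tissues, was chosen after seeing the data. An uncalled value that changed sign was counted as reversed where the move exceeded its standard error.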

Additional observations from a re-analysis of the deposited data

Results flagged for a closer look

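In 3 of the 32 combinations of 8 genes and 4 groups of 6 arrays, 1 array lay farther from the others than Dixon's 95% limit allows, where chance gives about 1 in 20. Shmt2 on liver HF-low-low replicate 3 was 0.43, and the nearest of the other 5 arrays was 1.36. On the same array Mthfd1 had its lowest liver value, -0.07, and Tyms its highest, -0.48, while Fpgs at 2.01 and Ftcd at 1.93 lay within the range of the other 11 livers. Shmt1 on liver HF-low-low replicate 5 was 2.04, with the nearest other array at 1.65. Tyms on colon HF-low-low replicate 4 was 0.74, with the nearest other array at 0.09, and the other bright Tyms probe read 0.74 there too. The causes were not tested.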

How the results depend on the processing

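Across all alternatives run, Ftcd, Fpgs, Shmt2, Shmt1 and Mthfd1 were called higher in liver each time. Their differences ranged from 6.17 to 6.87, 2.44 to 2.93, 2.30 to 2.85, 1.56 to 2.35 and 1.33 to 1.95. Tyms was called lower in 28 of 29, the exception being its intronic probe at 0.18, and the other Slc19a1 probe reversed that gene to 0.36. The number of genes called between tissues was 6 to 8. Mthfd2 was called in 11 of 27 alternatives (-1.94 with the signals processed by Feature Extraction), and Slc19a1 with those signals (-0.63) and with median centring (-0.89). The Feature Extraction signals shifted the median of all probes to -0.19. Calls over all probes changed as well, from 4691 higher and 5015 lower in liver in the main fit. They were 5749 higher and 8023 lower with the Feature Extraction signals, and 2687 and 6450 with median centring. The cause of these changes was not tested.

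No diet difference was called under any alternative. The diet values that changed sign and moved by more than their standard error were, in liver, the intronic Tyms probe (-0.13), the dim Slc19a1 probe (-0.27), Mthfd2 within the first scan day (-0.59), and Ftcd (0.11) and Fpgs (0.080) within the second. In colon such changes were Fpgs with median centring (0.15), Tyms within the first scan day (0.25) and Slc19a1 within the second (-0.22). Between the tissues' diet effects they were the intronic Tyms probe (-0.21) and the dim Slc19a1 probe (-0.23). Smaller changes of sign are not listed.

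Fitted with the slide as a replicate block, 0 genes were called for diet. Arrays of a slide correlated by -0.571 to 0.643, over 0.1 in 2 of 6 liver and 4 of 6 colon pairs. Without a block for the mouse, or with the mouse as a fixed term, 6 genes were called between tissues. Signal over background limits Mthfd2 in liver, the intronic Tyms probe and the dim Slc19a1 probe.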
